A study of Mus musculus with 3 samples.

Results

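In whole lung of the mouse, 10 acute-phase genes were followed: the serum amyloid A genes Saa1, Saa2, Saa3 and Saa4, the lipocalins Lcn2 and Orm1, the haem-handling proteins Hp and Hpx, and the pattern-recognition proteins Ptx3 and Lbp. They were chosen by name as acute-phase reactants, and all 10 were found among the 53342 genes of the count table. RNA was sequenced from the lungs of 3 male C57Bl/6 mice, called mouse 4, 5 and 6 after the last digit of their labels. Each mouse was given microparticles made from Mycobacterium abscessus into the trachea (50 µL, equal to 1000000 bacteria), a challenge meant to produce granulomas, and then 5 µg of MIA-602 under the skin every day for 3 weeks. MIA-602 blocks the receptor for growth hormone-releasing hormone, and the series asks how it acts in sarcoidosis. The animals' age was not given in the sources used here. All 3 libraries form 1 group, and untreated or unchallenged lungs were not analysed here. The values below are therefore levels and differences between mice, not effects of challenge or drug.

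Acute-phase proteins are made in large amounts when cytokines such as interleukin 6, interleukin 1 and tumour necrosis factor act on a tissue, through the factors STAT3, NF-kB and C/EBP. The liver is the main source of the proteins found in plasma, but several are also made locally: Saa3 mainly outside the liver by macrophages, fat and epithelia, Lcn2 by neutrophils, macrophages and epithelia, and Hp by lung epithelium. Saa1 and Saa2 are the chief hepatic serum amyloids of the mouse, whereas Saa4 is made constitutively.

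Libraries held 31579465 to 43845715 counts. Levels are CPM, counts per 1000000 counts of a library, scaled with TMM, a correction for library composition. They are given for mice 4, 5 and 6 in that order or as the mean ± SD (n = 3 mice). Markers of lung cells matched the tissue label, with 9 of 9 alveolar type 2, 6 of 6 club and 7 of 7 endothelial genes at 1 CPM or more in every mouse. Mouse 4 stood apart in some lists: its 8 skeletal muscle genes summed to 5130 CPM against 1901 and 1630 in mice 5 and 6, and its 6 club cell genes to 10592 against 27693 and 24805. Mouse 5 stood apart in others. In mice 4, 5 and 6, erythroid genes summed to 1470, 3202 and 1813 CPM, cardiac genes to 316, 148 and 325, and goblet genes to 122, 55.3 and 115.

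The 4 Saa genes lie side by side on chromosome 7, and their sequences set how well their reads can be told apart. Below are the first 90 coding bases of the principal transcripts of 3 of them (GENCODE M21), shown because the results turn on the contrast between Saa3 and the pair Saa1 and Saa2. Capitals mark bases that differ from Saa1 at the same position, counted from the start codon.
Saa1 coding start: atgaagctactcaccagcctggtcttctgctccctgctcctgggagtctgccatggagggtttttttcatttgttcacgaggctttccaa
Saa2 coding start: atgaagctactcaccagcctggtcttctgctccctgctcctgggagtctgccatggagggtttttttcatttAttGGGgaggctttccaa
Saa3 coding start: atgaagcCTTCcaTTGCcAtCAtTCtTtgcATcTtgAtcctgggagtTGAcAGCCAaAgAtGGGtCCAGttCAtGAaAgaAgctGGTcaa
Saa2 differed from Saa1 at 4 of these 90 bases and Saa3 at 44. Over the whole coding sequence, with gaps counted as differences, Saa1 and Saa2 were 95.1% identical, Saa1 and Saa3 76.9%, and Saa3 and Saa4 65.5%. Of the 50-base windows in its annotated transcripts, Saa1 shared 31.5% with Saa2 and Saa3 together and 31.1% with Saa2. Saa2 shared 30.0% with Saa1. Since Saa3 had 42927 to 113872 counts and Saa1 28 to 58, a small share of miscounted Saa3 reads could alter the level of Saa1. Saa3 shared 4.15% of its windows with any other gene, and Orm1 20.4%, all of them with Orm2. Lcn2, Hp, Hpx and Ptx3 shared none (0%). Counts of Saa1, Saa2 and, to a lesser degree, Orm1 are therefore uncertain, since how shared reads were counted is not given in the sources used here.

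The 250 bases before the RefSeq start site (GRCm38.p6) are shown for the same 3 genes, 5′ to 3′ on the gene's strand. Those of Saa1 and Saa2 are near-copies, and that of Saa3 is not. Whether promoter sequence bears on transcript level was not tested. Capitals mark matches to TTGCNNAA, a C/EBP-type pattern searched on both strands.
Saa1 (chr7:46742981-46743230, minus strand): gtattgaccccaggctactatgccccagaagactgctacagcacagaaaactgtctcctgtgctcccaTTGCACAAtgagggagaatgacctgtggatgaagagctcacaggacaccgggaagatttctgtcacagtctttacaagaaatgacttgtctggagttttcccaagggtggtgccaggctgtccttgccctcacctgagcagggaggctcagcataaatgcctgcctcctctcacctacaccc
Saa2 (chr7:46751583-46751832, plus strand): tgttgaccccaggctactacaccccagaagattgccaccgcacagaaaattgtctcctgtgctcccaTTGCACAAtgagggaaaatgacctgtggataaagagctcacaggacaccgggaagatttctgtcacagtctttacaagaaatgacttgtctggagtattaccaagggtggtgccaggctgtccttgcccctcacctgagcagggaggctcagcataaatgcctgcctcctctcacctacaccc
Saa3 (chr7:46715677-46715926, minus strand): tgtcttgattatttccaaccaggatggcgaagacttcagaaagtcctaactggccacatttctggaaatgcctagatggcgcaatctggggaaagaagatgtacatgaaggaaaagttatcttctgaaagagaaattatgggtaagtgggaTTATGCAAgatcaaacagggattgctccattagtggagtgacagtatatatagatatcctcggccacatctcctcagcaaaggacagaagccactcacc
The Saa1 and Saa2 promoters were 94.8% identical, and those of Saa1 and Saa3 52.2%. The match began 182 bases before the start in Saa1, 183 in Saa2 and 99 in Saa3. Promoters of 7 of the 10 genes were in the RefSeq table (all but Orm1, Hp and Lbp). All 7 held the C/EBP-type pattern, which was present in 9.56% of 32851 mouse promoters of the same length. Saa1 and Saa2, being near-copies, are not separate instances among the 7. None of the 7 held the STAT pattern TTCNNNGAA (7.02% of all promoters), the kappaB motif (3.90%) or the IL-6 element CTGGGA (27.0%) in this window. No matches to different patterns overlapped here, and a match is a description of letters, not a binding site.

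Saa3 was by far the most abundant serum amyloid transcript in lung, at 1867, 1047 and 1653 times the level of Saa1 per kilobase of exon. Saa3 (ENSMUSG00000040026, chromosome 7, 46711998 to 46715700, minus strand, mm10) had 113872, 42927 and 48665 counts, or 2643, 1187 and 1535 CPM. Mouse 4 was the highest and mouse 5 the lowest, and the mean of 1788 ± 761 CPM ranked 29 among all genes in the table. Saa1 (ENSMUSG00000074115, 46740497 to 46742980), a protein carried on high-density lipoprotein, had 58, 39 and 28 counts, or 1.35, 1.08 and 0.883 CPM. Saa2 (ENSMUSG00000057465, 46751790 to 46754313), its near-copy, had 10, 4 and 6 counts, or 0.232, 0.111 and 0.189 CPM. For both genes the exact 95% Poisson intervals of the 3 mice overlapped, although overlap is not itself a test of a difference between mice. These intervals cover counting error only. Saa4 (ENSMUSG00000040017, 46727998 to 46732603), the constitutive member, stood at 1.16, 1.19 and 1.23 CPM from 50, 43 and 39 counts. This was the narrowest spread of the 10 genes on the scale of CPM (a coefficient of variation of 2.92%). Its Poisson intervals (0.861 to 1.53, 0.861 to 1.60 and 0.875 to 1.68 CPM) were far wider than that, so steady expression cannot be read from these counts.

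Saa3 held 99.90% of all Saa counts in mouse 4 (exact Clopper-Pearson 95% interval 99.88 to 99.91), 99.80% in mouse 5 (99.75 to 99.84) and 99.85% in mouse 6 (99.81 to 99.88). Of the counts of Saa1 and Saa2, Saa1 took 85.3% in mouse 4 (74.6 to 92.7), 90.7% in mouse 5 (77.9 to 97.4) and 82.4% in mouse 6 (65.5 to 93.2). The 3 intervals overlapped, and a difference between mice in the split between the near-copies was not tested.

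**Figure D1:**
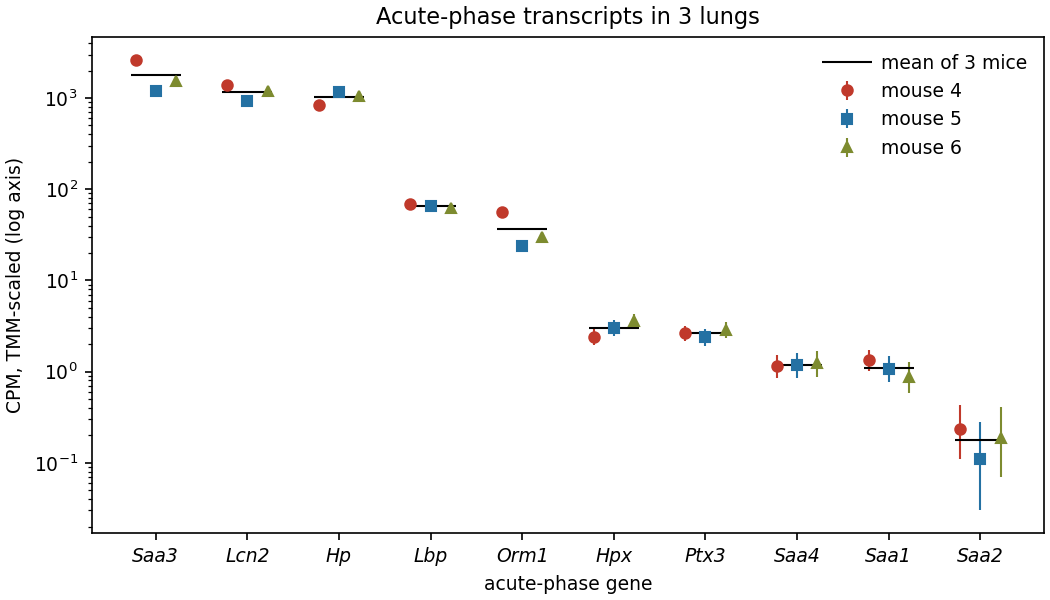
CPM (log axis) of the 10 acute-phase genes, ordered by mean, with 1 point per mouse, exact 95% Poisson bars and a black line at the mean of the 3 mice. Saa3, Lcn2 and Hp lie near 1000 CPM or above, Lbp and Orm1 between 23.9 and 68.4 CPM, and the other 5 genes below 4 CPM.

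Both lipocalins were expressed, Lcn2 far more than Orm1. Lcn2 (ENSMUSG00000026822, chromosome 2, 32384633 to 32388252), which withholds iron from bacteria by binding their siderophores, had 60194, 33174 and 38203 counts, or 1397, 917 and 1205 CPM. The order of the mice was that of Saa3, with mouse 4 highest and mouse 5 lowest. Orm1 (ENSMUSG00000039196, chromosome 4, 63344560 to 63348163), the plasma carrier alpha-1-acid glycoprotein, had 2406, 865 and 939 counts, or 55.9, 23.9 and 29.6 CPM. Mouse 4 again lay above both other mice. Orm1 held 93.0% of the counts of the 3 Orm genes in mouse 4 (exact Clopper-Pearson 95% interval 92.0 to 94.0), 91.2% in mouse 5 (89.3 to 93.0) and 92.1% in mouse 6 (90.3 to 93.7). Its relatives Orm2 and Orm3 stood at 2.51 ± 0.995 and 0.491 ± 0.0466 CPM.

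Of the haem-handling pair, haptoglobin was abundant and hemopexin scarce. Hp (ENSMUSG00000031722, chromosome 8, 109575128 to 109579172), which binds free haemoglobin, had 36482, 42167 and 33080 counts, or 847, 1166 and 1043 CPM. Here mouse 4 was the lowest and mouse 5 the highest, the reverse of Saa3, Lcn2 and Orm1. Hpx (ENSMUSG00000030895, chromosome 7, 105591613 to 105600137), which binds free haem, had 104, 109 and 114 counts, or 2.41, 3.01 and 3.60 CPM. Mouse 6 was the highest and mouse 4 the lowest, and their Poisson intervals (2.97 to 4.32 and 1.97 to 2.93 CPM) did not overlap. Those intervals cover counting error only. In the edgeR quasi-likelihood fit described below, the spread of Hpx was 1.05 times the value expected at its level (unadjusted p = 0.433). Per kilobase of exon, Hp exceeded Hpx by 327, 361 and 271 times.

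The transcripts of the pattern-recognition proteins differed 1.09-fold (Lbp) and 1.21-fold (Ptx3) between the highest and the lowest mouse. Lbp (ENSMUSG00000016024, chromosome 2, 158306493 to 158332852), which hands bacterial lipopolysaccharide to CD14, stood at 68.4, 65.6 and 62.6 CPM. Ptx3 (ENSMUSG00000027832, chromosome 3, 66219910 to 66225805), the long pentraxin that marks microbes for complement and phagocytes, had 113, 86 and 91 counts, or 2.62, 2.38 and 2.87 CPM. The Poisson intervals of the 3 mice overlapped for Ptx3 (2.16 to 3.15, 1.90 to 2.94 and 2.31 to 3.52 CPM). They are wide, so steady expression of Ptx3 cannot be read from these counts. For Lbp, the intervals of mouse 4 (65.9 to 70.9 CPM) and mouse 6 (59.9 to 65.4 CPM) did not overlap. All these intervals cover counting error only. The span of Ptx3 lies inside that of Veph1, with no exon of one overlapping an exon of the other. The coefficients of variation were 4.38% for Lbp and 9.37% for Ptx3.

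Levels of different genes were compared per kilobase of exon, within each mouse. The order was Saa3 (686 ± 292 CPM per kilobase), Hp (634 ± 100.3), Lcn2 (447 ± 92.1), Orm1 (47.0 ± 21.98), Lbp (13.6 ± 0.594), Hpx (2.01 ± 0.394), Ptx3 (0.978 ± 0.0916), Saa4 (0.570 ± 0.0166), Saa1 (0.445 ± 0.0939) and Saa2 (0.0704 ± 0.0245). The leading 3 did not separate beyond their spread: the log2 difference of Saa3 and Hp was 0.04 ± 0.82 (SD, n = 3, higher in 1 of 3 mice), and that of Hp and Lcn2 0.51 ± 0.53 (2 of 3 mice). The other 7 of the 9 neighbouring pairs kept their order in 3 of 3 mice, with a mean difference above its SD. The order was set by the means of these same mice, so that count describes them and is not a separate test. The smallest step of these, Saa4 over Saa1, was 0.38 ± 0.34 on the log2 scale. In mouse 4 this step was 0.03, and Saa1 had more counts there than Saa4 (58 against 50). The largest step, Lcn2 over Orm1, was 3.32 ± 0.38. With 3 mice, the exact sign-flip test, taken two-sided, cannot give p below 0.25, and the 7 pairs gave that value (0.321 after Benjamini-Hochberg adjustment over 9 pairs). The order at the top depends on the length used. The exon total of Saa3 is 2606 bases, but its principal transcript is 555 bases long. With the longest transcript of each gene, Lcn2 led with a mean of 854 CPM per kilobase, before Saa3 with 813 and Hp with 757. With principal transcripts, a choice made after seeing the data, Saa3 stood at 3222 ± 1370 CPM per kilobase, Lcn2 at 1282 ± 264 and Hp at 757 ± 120, in this order in 3 of 3 mice. Saa1 (1.81 ± 0.382) then had a higher mean than Ptx3 and Saa4, but exceeded Ptx3 in 2 of 3 mice only (log2 difference 0.38 ± 0.38).

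The 10 genes together took 0.493%, 0.341% and 0.390% of all counts in mice 4, 5 and 6. Saa3, Lcn2 and Hp made up 97.4%, 97.1% and 97.4% of that. Of the 10, 8 reached 1 CPM in every mouse, and Saa1 and Saa2 did not. Saa2 alone fell below the expression filter used for the tests, so 9 of the 10 were tested for spread.

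Saa3 and Orm1 differed most between mice among the 9 tested. Between the highest and the lowest mouse, Orm1 differed 2.33-fold and Saa3 2.23-fold, followed by Saa1 and Lcn2 (1.52-fold each), Hpx (1.49-fold), Hp (1.38-fold), Ptx3 (1.21-fold), Lbp (1.09-fold) and Saa4 (1.06-fold). Thus 2 of 9 exceeded 2-fold, against 7.18% of all 17636 genes tested, and the median was 1.49-fold against 1.24-fold over all genes. Both differences rest on mouse 4 against mouse 5: without either of these mice, 0 of 9 exceeded 2-fold. The highest value was in mouse 4 for 5 of the 9 genes, against 33.4% of all genes tested, in mouse 5 for 1 (Hp, against 36.4%) and in mouse 6 for 3 (Hpx, Ptx3 and Saa4, against 30.2%). Genes both over 2-fold and highest in mouse 4 numbered 2 of 9 (Orm1 and Saa3, against 3.25% of all), and 0 of 9 were over 2-fold and highest in mouse 5 (2.18%) or mouse 6 (1.75%).

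In edgeR's quasi-likelihood fit of all genes, the spread of Orm1 was 26.8 times and that of Saa3 10.4 times the value expected at their expression level (unadjusted p = 0.00535 and 0.0276, Benjamini-Hochberg adjusted p = 0.874 and 0.955). At an adjusted threshold of 0.05 the test called 0 of 9 members and 0 of 17636 genes (0%). Below an unadjusted p of 0.05 lay 867 genes (4.92%), Orm1 and Saa3 among them. The trend, and the scatter allowed around it, were estimated from these same genes in 3 mice, so a lack of calls does not show even levels. All 8 skeletal muscle genes exceeded 2-fold between mice (median 3.06-fold), and 0 of them were called. Limma called 0 genes as well, with 850 below the unadjusted threshold. With no expression filter the fit called 629 of 30751 genes, Orm1 (adjusted p = 3.24e-07) and Saa3 (adjusted p = 0.00207) included, so the calls depend on that filter. In that fit the prior degrees of freedom went from 3.88 to infinite, and the spread over its trend was 20.6 times for Orm1 and 10.9 times for Saa3. Each library is from another animal, and a shared cage, litter or processing day was not given.

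**Figure D2:**
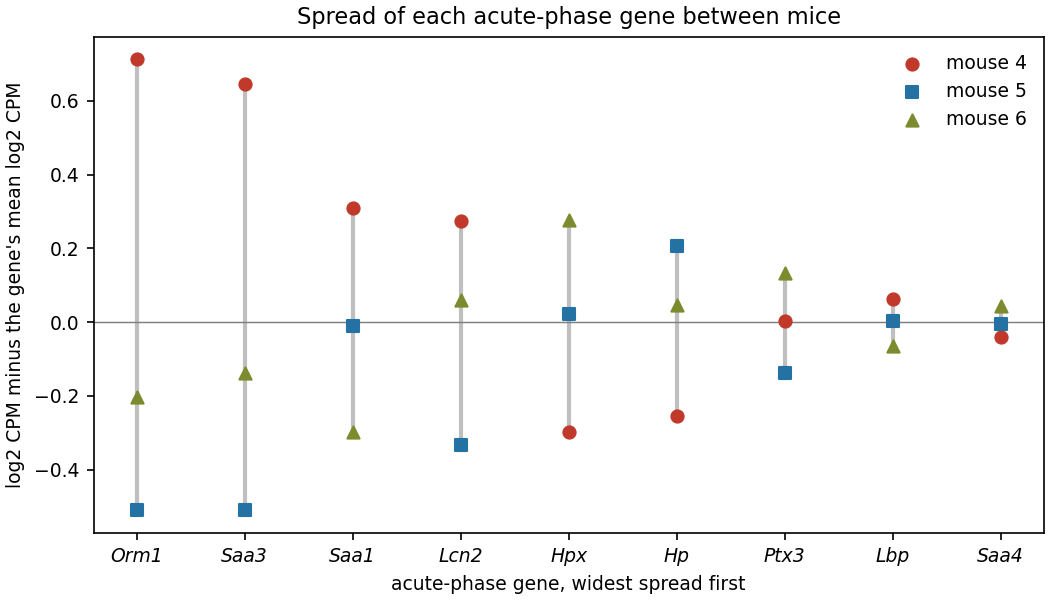
Log2 CPM of the 9 tested genes minus the gene's own mean over the 3 mice, 1 point per mouse, genes ordered by the ratio of highest to lowest mouse. Mouse 4 is the top point for Orm1, Saa3, Saa1, Lcn2 and Lbp and the bottom point for Hpx, Hp and Saa4.

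Saa3 and Orm1 had like profiles over the mice, and Hp had another. The ratio of Saa3 to Orm1 per kilobase of exon was 14.1, 14.8 and 15.4 in mice 4, 5 and 6, or 14.7 ± 0.669, although each gene varied over 2-fold. The ratio of Saa3 to Lcn2 was 1.90, 1.30 and 1.28, and that of Saa3 to Hp 1.92, 0.627 and 0.907, so that with this length Saa3 exceeded Hp in mouse 4 alone. In CPM, and per kilobase of principal transcript, Saa3 exceeded Hp in 3 of 3 mice. Among 10917 genes of at least 10 CPM, the 3 with a profile nearest to Saa3 over the 3 mice (Euclidean distance of centred log2(CPM + 0.5)) were the chemokine Ccl5 at a distance of 0.044, Orm1 at 0.085 and the chemokine Cxcl5 at 0.099. For Orm1 they were Nos2, the inducible nitric oxide synthase (0.062), Ccl5 (0.063) and Saa3. Only 3 genes lay within 0.1 of Saa3 and 4 within 0.1 of Orm1, against 164 for Lcn2, 216 for Hp and 2068 for Lbp. The values were centred but not scaled, so such a count depends on how far the gene itself varied. Lbp varied 1.09-fold, whereas Saa3 and Orm1 varied over 2-fold, as only 7.18% of all genes tested did. The counts are not matched for spread, so they do not show how distinctive a profile is. With 3 mice these distances describe the libraries and carry no test. The nearest genes were Fcgr1, Pkdcc and Mrpl38 for Lcn2, Cc2d2a, F3 and Podn for Hp, and Gigyf2, Hsd17b12 and Inpp5f for Lbp.

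**Figure D3:**
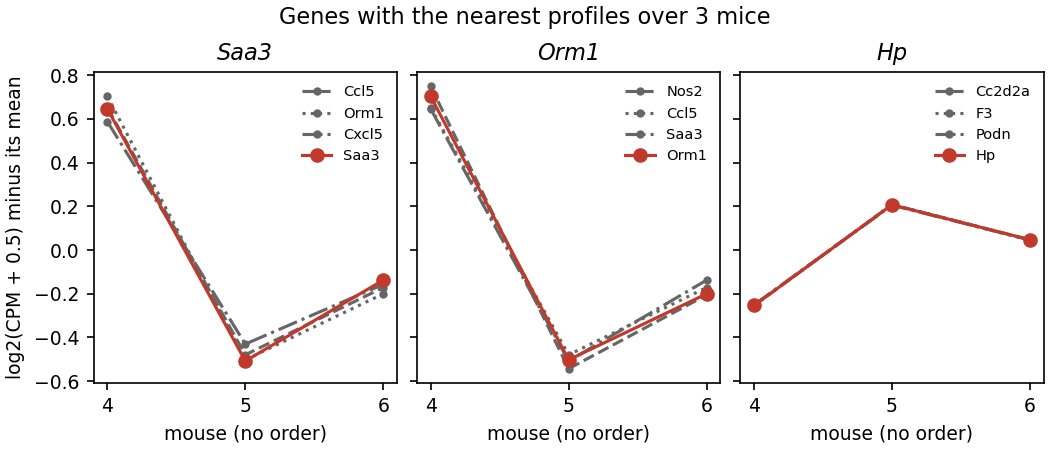
Log2(CPM + 0.5) of Saa3, Orm1 and Hp (red) in mice 4, 5 and 6, minus each gene's mean, with the 3 nearest profiles in grey; lines join the values of 1 gene and the mice have no order. Ccl5, Cxcl5, Nos2, Saa3 and Orm1 share a peak in mouse 4, whereas Hp is lowest there.

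Several cell marker lists also differed between mice, in bulk tissue where fewer cells of a type and less RNA per cell cannot be told apart. The 12 monocyte and macrophage genes summed to 15014, 11727 and 12120 CPM, and 11 of the 12 were highest in mouse 4, as Saa3, Orm1 and Lcn2 were. The 12 neutrophil genes summed to 393, 299 and 280 CPM, with 8 highest in mouse 4 and 0 of 12 at 0 in all mice. Of the 12, 10 were lowest in mouse 6 and only 1 in mouse 5, where Saa3, Orm1 and Lcn2 were lowest. S100a8 stood at 70.5, 67.4 and 42.6 CPM and S100a9 at 61.6, 69.3 and 42.1 CPM. The receptor gene Csf3r stood at 117, 79.8 and 79.3 CPM, highest in mouse 4. The granule gene Ltf, the 1 gene of the list lowest in mouse 5, stood at 99.8, 43.5 and 88.05 CPM. Other granule genes went another way. Ngp (1.46, 0.802 and 0.662 CPM) and Camp (1.25, 0.774 and 0.725 CPM), named after their values were seen, were scarce and lowest in mouse 6. Ly6g, named for its use as a defining marker, had 4, 10 and 4 counts. The 8 adipocyte genes summed to 359, 286 and 296 CPM, with 4 highest in mouse 4, 4 highest in mouse 6 and 6 lowest in mouse 5. In the direction of Hp, 5 of 6 club cell genes and 8 of 9 alveolar type 2 genes were lowest in mouse 4, the latter summing to 22915, 30771 and 27725 CPM. Skeletal muscle (8 of 8) and squamous epithelium genes (7 of 7, summing to 381, 144 and 123 CPM) were highest in mouse 4 as well. Ciliated (6 of 6) and erythroid genes (6 of 6) were lowest in mouse 4, goblet (6 of 6) and cardiac genes (6 of 6) lowest in mouse 5, and endothelial genes (7 of 7) highest in mouse 5. Alveolar macrophage (652, 773 and 759 CPM), mesothelial (236, 263 and 225) and fibroblast sums (2726, 3050 and 2675) differed less. A sum can hide genes that move in opposite directions, and 1 gene of each of these lists exceeded 2-fold between mice. The median ratio of highest to lowest mouse was 1.30 for alveolar macrophage, 1.64 for mesothelial and 1.26 for fibroblast genes. It was 1.60 for monocyte and macrophage genes. What part any of these lists has in the levels of Saa3, Orm1, Lcn2 or Hp was not tested.

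Of 15 hepatocyte genes, 3 reached 1 CPM in every mouse, among them Trf, the iron carrier transferrin, at 21.8, 19.6 and 24.2 CPM and Cyp2e1, a cytochrome P450, at 13.3, 7.05 and 10.8 CPM. Both were lowest in mouse 5. Albumin, Alb, had 120, 314 and 37 counts and Apoa1 46, 122 and 8. Both of these were highest in mouse 5, as were 11 of the 15 genes. Saa1 (58, 39 and 28 counts), Saa2 and Hpx were highest in other mice. Where the scarce Saa1, Saa2 and Hpx transcripts came from was not tested.

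**Figure D4:**
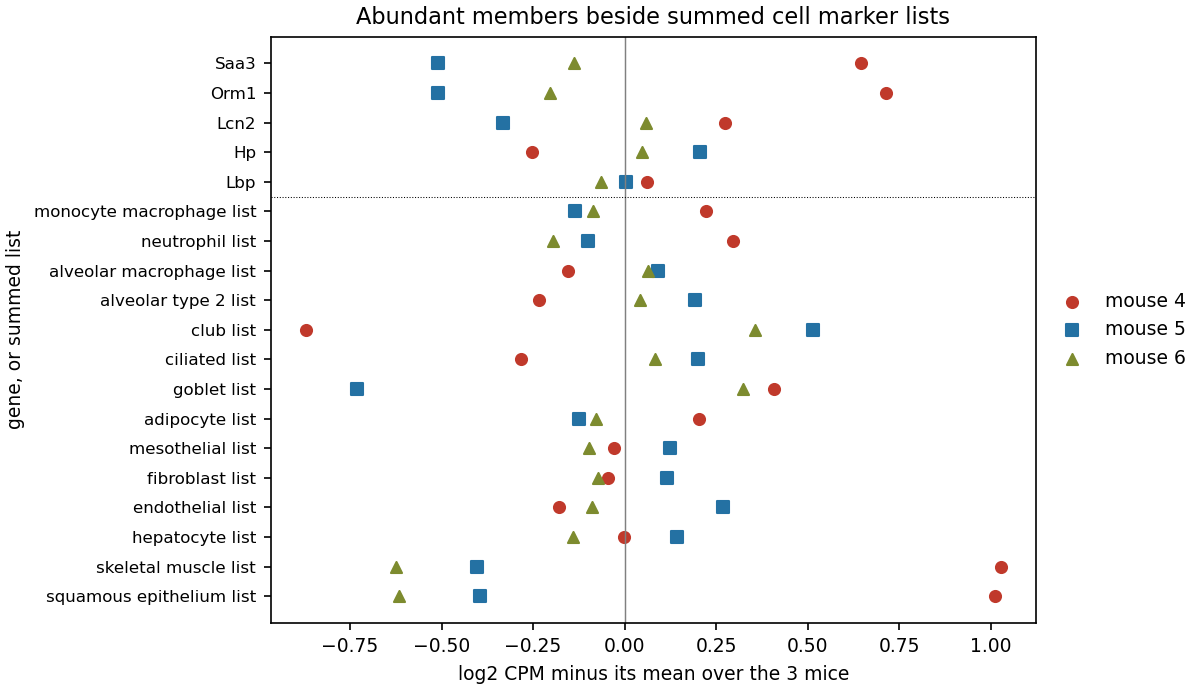
Log2 CPM minus its mean over the 3 mice for 5 abundant members (above the dotted line) and for the summed CPM of 14 cell marker lists (below it), 1 point per mouse. Monocyte and macrophage, neutrophil, skeletal muscle and squamous sums peak in mouse 4, and club, ciliated and alveolar type 2 sums are lowest there.

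Other acute-phase genes divided by level. Of 24 such genes, 13 reached 1 CPM in every mouse and 19 were tested, of which 6 exceeded 2-fold between mice (7.18% of all genes tested did). Those 6 were Orm2, Serpina3k, Serpina1b, Fgg, A2m and Hamp, all scarce, with means from 1.06 (Hamp) to 2.51 CPM (Orm2). The 7.18% covers genes at all levels, so these shares are not matched for level. None (0 of 19) passed the spread test, with 2 below an unadjusted p of 0.05 in edgeR (4.92% of all genes). In CPM, which do not correct for gene length, complement C3 led with 2400, 1643 and 1975 CPM, followed by Serping1, the C1 inhibitor, at 485 ± 42.4 CPM, ceruloplasmin Cp, a copper protein, at 386 ± 35.7, Itih4 at 211 ± 17.7, Cd14 at 170.1 ± 40.2 and the metallothionein Mt1 at 134 ± 27.9. C3, like Saa3, Lcn2 and Orm1, was highest in mouse 4 and lowest in mouse 5. The plasma reactants named next were picked out after their values were seen, and all were scarce. C-reactive protein, Crp, had 1, 3 and 1 counts, and serum amyloid P, Apcs, had 0 counts in every library. The fibrinogen genes Fga, Fgb and Fgg stood at 0.547 ± 0.508, 0.521 ± 0.531 and 1.29 ± 1.0 CPM, each highest in mouse 5, as Alb was. Hamp, the iron hormone hepcidin, had 31, 29 and 53 counts.

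**Figure D5:**
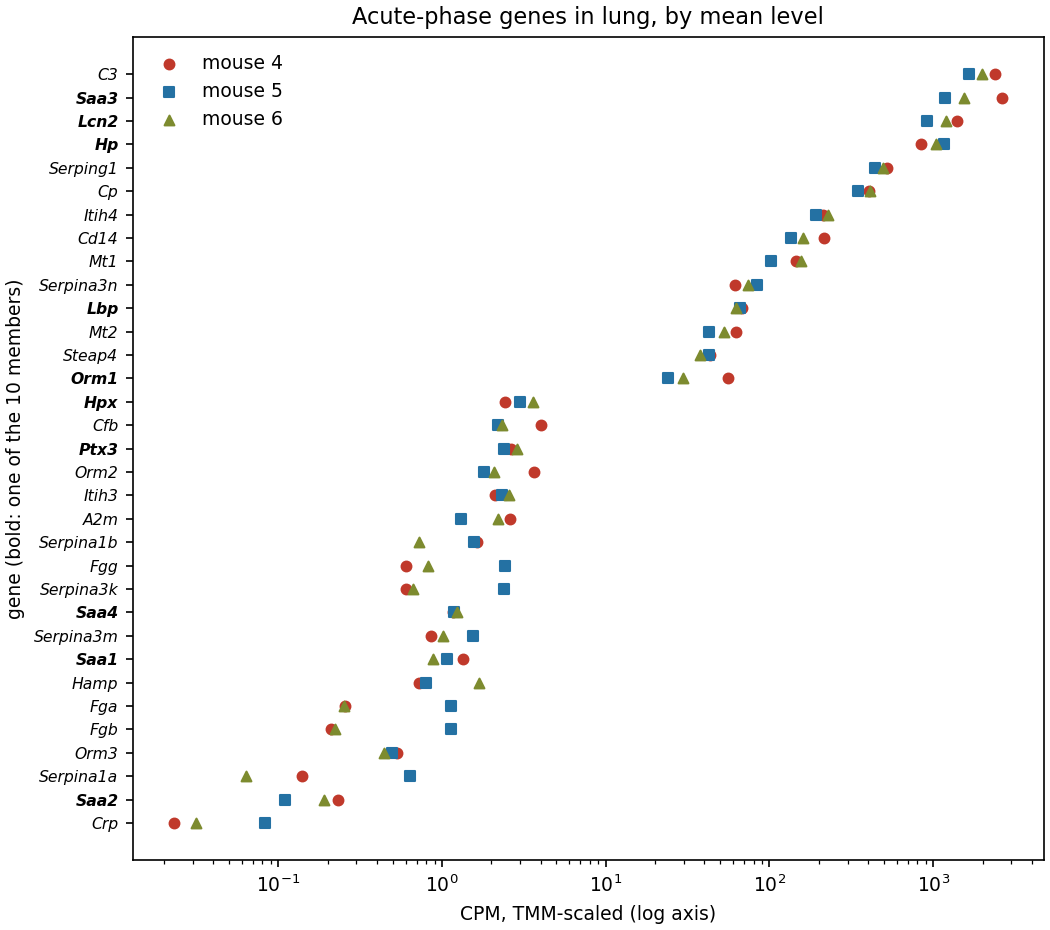
CPM (log axis) of the 10 members (bold) and 23 other acute-phase genes with any count, ordered by mean, 1 point per mouse. Saa3, Lcn2 and Hp lie among the highest with C3, and fibrinogen genes are separated by their mouse 5 points.

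Of the cytokines that induce acute-phase genes, Il6 and Il22 were scarce, and Il1b and Tnf were expressed. Of 28 inducers and regulators, 24 reached 1 CPM in every mouse, and 0 of the 24 tested exceeded 2-fold (7.18% of all genes tested) or passed the spread test, with 2 below an unadjusted p of 0.05 in edgeR (4.92% of all genes). Il6 had 54, 55 and 55 counts (1.503 ± 0.241 CPM), Il1b stood at 45.9 ± 4.47 CPM, Tnf at 43.0, 27.0 and 41.4, and the interleukin 6 family cytokine Osm at 8.94, 4.78 and 6.91. Il22 had 3, 0 and 2 counts. Of the factors, Stat3 stood at 253 ± 18.0 CPM, Cebpb at 246 ± 30.6, Cebpd at 138 ± 5.48 and Rela at 154 ± 9.89, and of the feedback genes, Nfkbia at 277 ± 28.01 and Socs3 at 122 ± 11.8. The receptor chain Il6st, shared by this cytokine family, reached 220.0 ± 20.2 CPM. Hnf4a, a regulator of liver genes, had 9, 4 and 8 counts.

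Receptors and partners of the acute-phase proteins were nearly all detected, with 21 of 22 at 1 CPM or more in every mouse and 0 of 21 over 2-fold (7.18% of all genes tested) or called by the spread test, with 4 below an unadjusted p of 0.05 in edgeR (4.92% of all genes). Of receptors that bind serum amyloid A, Ager, also abundant in alveolar type 1 cells, stood at 1809, 2416 and 1683 CPM. Fpr2, a formyl peptide receptor, stood at 159, 87.0 and 120.1 CPM, Tlr2 at 137, 78.3 and 81.7, Cd36 at 236, 333 and 240, and the scavenger receptor Scarb1 at 83.4 ± 4.30. Fpr2 and Tlr2, like Saa3, were highest in mouse 4, and Ager and Cd36 in mouse 5. The Lcn2 receptors Slc22a17 and Lrp2 had 20.97 ± 1.29 and 45.3 ± 4.67 CPM, and Mc4r, another proposed receptor, had 0 counts in every library. Cd163, the receptor for haptoglobin bound to haemoglobin, was scarce at 3.67, 2.38 and 2.52 CPM. Lrp1, which takes up hemopexin, reached 422 ± 26.6 CPM, and Hmox1, which breaks down haem, 259.5, 149 and 177.5 CPM. The partners of Lbp in lipopolysaccharide sensing, Cd14, Tlr4 and Ly96, stood at 170.1 ± 40.2, 13.0 ± 1.10 and 11.7 ± 1.61 CPM. Of the partners of Ptx3, the complement subunits C1qa, C1qb and C1qc reached 568 ± 137, 413 ± 98.5 and 412 ± 93.3 CPM, and Tnfaip6, which joins it in hyaluronan matrix, 1.49 ± 0.201.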

How the data were processed

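Lungs of 3 mice gave 1 library each. Per the labels' protocols, RNA came from a Direct-zol MicroPrep kit and libraries from Nugen's Universal mRNA Prep. Tools listed in the submitters' processing notes are STAR 2.5.2a, Trim Galore 0.6.2 and bcl2fastq 2.17, with the build mm10. Which program and annotation produced the counts, and whether strand was used, is not given in the sources used here. The authors deposited whole-number counts for each Ensembl gene without normalization. GENCODE M21 of the same build gave symbols, coordinates and exon lengths for 53237 of 53342 identifiers (99.8%).

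CPM were scaled with TMM factors over genes kept by filterByExpr (17636). Spread between mice was tested in edgeR 4.0.16 (R 4.3.3) with an intercept-only quasi-likelihood fit, legacy and robust. Each gene's quasi-dispersion was set against the trend by an upper-tail F test, Benjamini-Hochberg adjusted over all genes kept. The procedure was tried on simulated counts with a capped dispersion and shifts larger than any seen in the members. That trial does not show what the test can find at the fold sizes of the members. Limma 3.58.1 and DESeq2 1.42.0 size factors were alternatives, and the others were filters, lengths, pseudocounts and leaving out each mouse. Intervals at 95% were computed in scipy 1.17.1 and alignments in Biopython 1.88 (Python 3.11.15). Genes to be named were all 10 members, up to 6 of the most abundant genes of each of 19 other lists, any receptor, partner, paralog or inducer of a member in them, and the 3 nearest profiles of each member of at least 10 CPM. Most cell marker lists are given by their sums and counts alone. Members and lists were chosen with earlier results of these data known.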

Additional observations from a re-analysis of the deposited data

How the results depend on the processing

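Other scaling (DESeq2 size factors or library totals) left 8 members at 1 CPM or more in every mouse and 2 over 2-fold, and moved 0 of 20 mean levels by over 1 SD. The count of genes called for spread was 629 with no expression filter, where 2 members (Orm1 and Saa3) were called, and 0 with DESeq2 size factors, a fit that is not robust, and limma. Leaving out 1 mouse gave 0 to 13 genes called, the 13 without mouse 4, and 0 members in each case. Members over 2-fold then numbered 0 to 2, with 0 without mouse 4 or mouse 5. The cause was not tested. Neighbouring pairs in the same order in every mouse numbered 7 of 9, 6 with no length scaling, and 7 to 9 with 1 mouse left out, the 9 without mouse 4. The order was set anew from the mice kept in each case, so these counts are not separate tests.

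The log2 difference of Hp and Lcn2 became -0.19 with no length scaling, -0.16 with the longest transcript and -0.75 with the principal transcript. That of Orm1 and Lbp became -0.94 with no length scaling, and that of Saa4 and Saa1 -1.65 with the principal transcript. Leaving out 1 mouse, Saa3 and Hp differed by -0.41 (without mouse 4) to 0.40. No paired comparison of conditions was possible because all 3 libraries form 1 group, and only genes within a mouse were paired. Depth limits Saa1, Saa2, Saa4, Hpx and Ptx3, which had 4 to 114 counts a library.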
